A study of Caenorhabditis elegans with 2 samples.

Results

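The genes described here encode LIN-35, the single retinoblastoma-family protein of Caenorhabditis elegans, and the other subunits of the DREAM complex. They are 8 listed genes of 19973 nuclear protein-coding genes, namely lin-35, efl-1, dpl-1, lin-9, lin-37, lin-52, lin-53 and lin-54. For each gene, every peak with a summit within 5 kb of its span was collected from the deposited peak lists. The group was chosen by the deposited HLH-8 peak signals, with the rank of the peak beside lin-35 and the peaks of the other genes already known. The signals, ranks and counts are therefore given as a description, and no test was made on them.

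The measurements are peaks from ChIP-seq, the sequencing of immunoprecipitated chromatin, for HLH-8, the worm's Twist-family basic helix-loop-helix factor, in 1 group of 2 biological replicates. The animals were hermaphrodite late embryos of strain OP63, taken 3.5 hours after synchronization by egg bleaching. They carried a transgene for HLH-8 fused at its C terminus to GFP and FLAG, and the precipitation used an antibody against GFP on whole animals. Neither a strain without the tag nor the controls were analysed here. In chromatin from whole embryos, weak binding in many cells and strong binding in few cells cannot be told apart.

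The DREAM complex joins a retinoblastoma-family protein, an E2F-DP pair and the MuvB core, and it represses cell cycle genes in resting cells. In the worm, LIN-35 is the bridge between the EFL-1 and DPL-1 pair and the MuvB proteins LIN-9, LIN-37, LIN-52, LIN-53 and LIN-54. LIN-53 is the homologue of the histone-binding protein RbAp48, and LIN-54 contacts DNA, where its homologues read the cell cycle homology region. Genes of this complex are class B genes of the synthetic Multivulva (synMuv) screens. There, their loss together with that of a class A gene gives extra vulvae. HLH-8 is known for patterning the postembryonic mesoblast and the sex and enteric muscles, and such factors bind E-boxes, sites of the form CANNTG.

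The DNA at the promoter sites of lin-54, lin-9 and efl-1 is shown first, because these were the strongest promoter sites after that of lin-35. Each stretch is 300 bases of RefSeq's WBcel235 sequence, the assembly also called ce11, and none overlapped an annotated exon. Capitals mark E-boxes, GAGAGA, the E2F-like words TTTCCCGC and TTTGGCGC, and TTTGAA, the word of the cell cycle homology region, each on either strand. The lin-54 stretch is chrIV:13240652-13240951 on the plus strand. It starts beside the 5′ end of the divergent gene rpl-12 and runs towards lin-54, with the summit at base 44. The lin-9 stretch, chrIII:8904132-8904431, and the efl-1 stretch, chrV:16965676-16965975, are on the minus strand and end at the gene's own 5′ end. Their summits were at bases 141 and 122.
rpl-12 and lin-54: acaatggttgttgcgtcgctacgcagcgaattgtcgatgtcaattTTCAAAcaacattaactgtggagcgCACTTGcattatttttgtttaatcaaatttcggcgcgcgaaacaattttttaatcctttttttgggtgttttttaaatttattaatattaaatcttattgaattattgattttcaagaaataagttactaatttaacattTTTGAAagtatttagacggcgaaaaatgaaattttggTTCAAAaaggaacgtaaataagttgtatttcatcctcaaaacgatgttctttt
lin-9: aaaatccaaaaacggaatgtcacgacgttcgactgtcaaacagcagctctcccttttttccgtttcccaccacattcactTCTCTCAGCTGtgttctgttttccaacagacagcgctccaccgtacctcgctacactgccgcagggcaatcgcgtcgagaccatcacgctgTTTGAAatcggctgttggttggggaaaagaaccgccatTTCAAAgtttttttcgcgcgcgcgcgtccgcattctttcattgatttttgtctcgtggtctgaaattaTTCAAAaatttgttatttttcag
efl-1: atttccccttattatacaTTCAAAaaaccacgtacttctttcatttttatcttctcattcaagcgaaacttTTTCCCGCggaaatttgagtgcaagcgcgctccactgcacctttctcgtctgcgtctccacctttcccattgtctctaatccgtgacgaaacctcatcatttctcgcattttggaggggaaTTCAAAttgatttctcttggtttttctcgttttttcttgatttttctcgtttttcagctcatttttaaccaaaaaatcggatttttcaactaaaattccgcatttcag

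In the lin-54 stretch, an E-box of class CAAGTG, read as CACTTG at bases 71 to 76, began 27 bp from the summit, and a TTTGAA word began 2 bp from it. The lin-9 stretch had its E-box, CAGCTG at bases 86 to 91, just beyond the 50 bp taken to each side of the pooled summit, but within 50 bp of both replicate summits. That E-box shares a base with a GAGAGA word. The efl-1 stretch had none of the 10 E-box classes, but it held TTTCCCGC at bases 72 to 79, 43 bp from the pooled summit. That word was not wholly within 50 bp of either replicate summit. Over the 300 bases upstream of all 19973 genes, 66.1% held an E-box of some class, 12.1% held the class CAAGTG and 5.2% the class CAGCTG. The share with a GAGAGA word was 21.6%. For the word TTTGAA it was 64.5%, for the E2F-like TTTCCCGC it was 1.65% and for the E2F-like TTTGGCGC it was 0.961%. The lin-9 and efl-1 stretches both end in TTTCAG, the form of a worm splice acceptor. Of the 8 genes, efl-1, lin-9, lin-52 and lin-53 had TTTCAG directly before the outermost 5′ end, as 12.3% of all genes did. In this species many annotated 5′ ends are sites of trans-splicing rather than of transcription start, so distances to a 5′ end are distances to the annotated end.

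An optimal peak, one that passed the authors' reproducibility step, lay in the promoter window of 2 of the 8 genes, lin-35 and lin-54. The window ran from 2000 bp upstream to 500 bp downstream of a 5′ end, and 5.75% of all nuclear coding genes had an optimal peak in it. A candidate peak of the pooled replicates lay in the window of all 8 genes, as in 53.0% of all genes. At 7 of them a pooled candidate was matched in both replicates by a summit within 200 bp, as in 25.7% of all genes, and dpl-1 was the exception. The candidate lists were the input of the reproducibility step and hold background as well as peaks. At the strongest pooled window candidates of efl-1, lin-37, lin-52 and lin-53, the matched replicate 1 peaks had -log10 q of 0.14, 0.31, 0.10 and 0.17. In replicate 2 the values were 1.48, 1.81, 0.65 and 1.46. The optimal list holds 1120 peaks, which were the 1120 strongest of the 25904 pooled candidates by signal, an authors' value in arbitrary units. The replicates' own candidate lists hold 24268 and 23945 peaks and reach down to signals of 7.5 and 7.75.

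The count of genes was also taken with a narrower window, with the stronger peaks and with single replicates. An optimal peak lay within 500 bp upstream to 200 bp downstream of a 5′ end for 2 of the 8 genes, as for 3.25% of all genes. With the stronger 560 optimal peaks it was 1, lin-35, against 3.07%. With the 1120 strongest peaks of replicate 1 alone it was 2, against 5.65%, and with those of replicate 2 alone it was 3, lin-9 being added, against 5.66%. A pooled candidate lay in the narrower window of 6 of the 8 genes, as for 29.6% of all genes, and one from the stronger part of the pooled list lay in the full window of 7, as for 35.0%. A candidate of replicate 1 lay in the window of all 8 genes (52.2% of all genes) and one of replicate 2 in that of 7 (51.4%), dpl-1 being the exception.

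**Figure D1:**
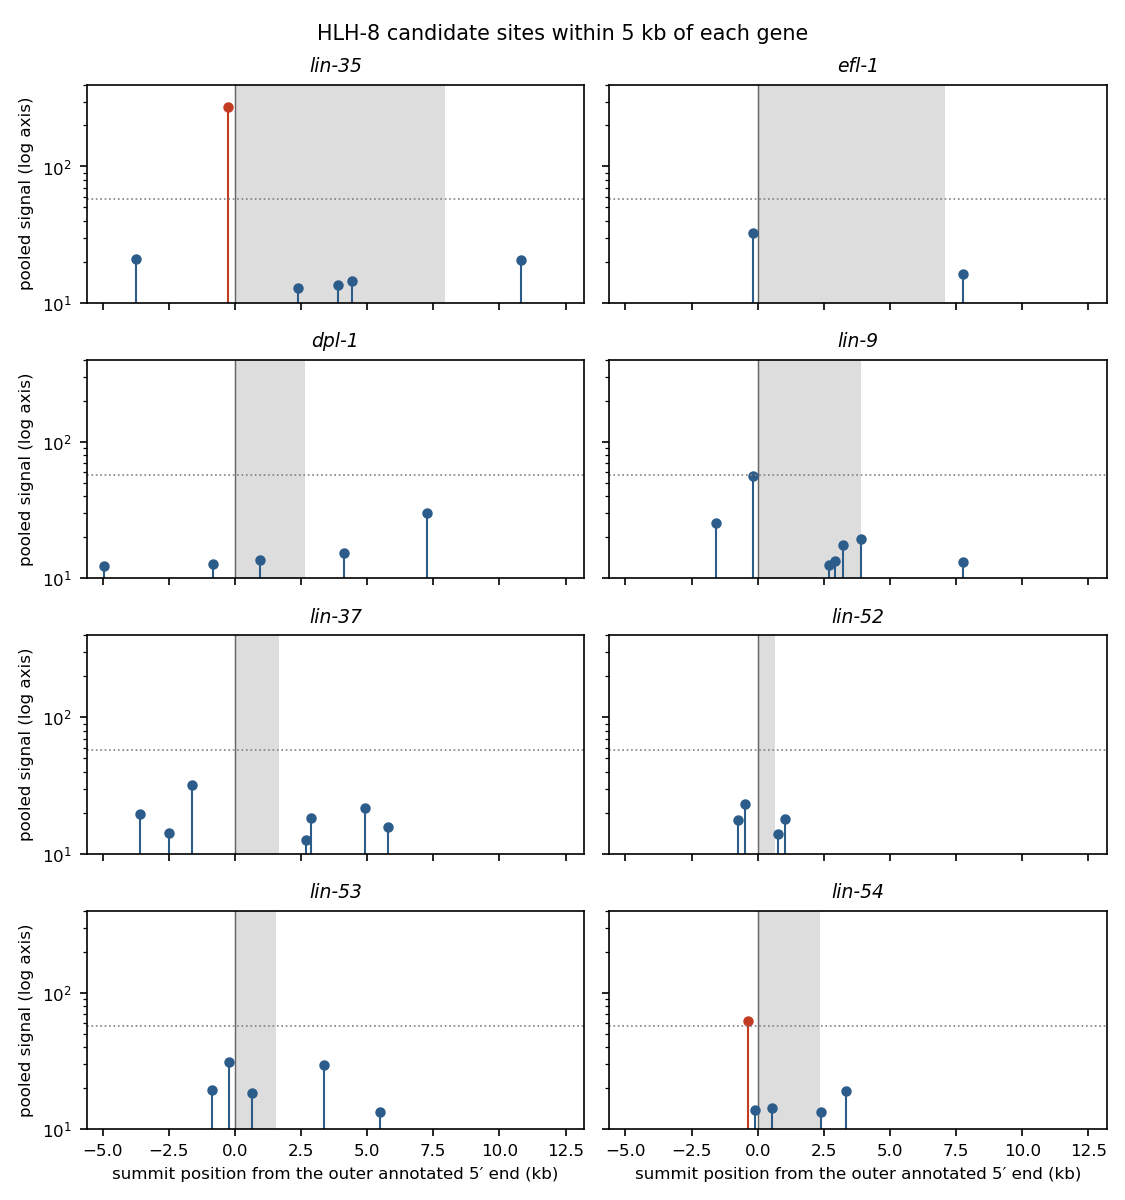
Pooled candidate sites within 5 kb of each gene, with the summit position from the outer annotated 5′ end in kb (negative values upstream, grey the gene's span) and the deposited pooled signal on a log axis. Red marks optimal peaks, blue other candidates, and the dotted line the weakest optimal signal of 57.4. The sites of lin-35 and lin-54 are the only ones above the line, and that of lin-9 is just under it at 55.8.

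lin-35, on chromosome I at 5807709 to 5815637, had by far the strongest site of the group, 253 bp upstream of its 5′ end. The peak spanned 5807247 to 5807660 and its summit was intergenic, between lin-35 and the divergent gene vps-51. Its signal was 132.1 in replicate 1 and 139.2 in replicate 2, and the pooled list gave 271.4. The 2 replicates, at 136 ± 5.03 (SD, n = 2), were close to each other, and their summits lay 19 bp apart, against a median of 29 bp over matched optimal peaks. Its rank was 20 for the pooled signal, 22 for replicate 1 and 24 for replicate 2, and it was number 10 among the 1100 nuclear optimal peaks. Of all coding genes, 10 had a stronger site in their window. The -log10 q values were 2.85 and 3.37 in the replicates and 3.57 in the pooled list, each the highest value its list holds.

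No E-box lay within 50 bp of the pooled or the replicate 1 summit of the lin-35 site, and CAACTG lay within 50 bp of the replicate 2 summit. Within 100 bp of the pooled summit there were CAAATG and CAACTG, and a GAGAGA word was within 50 bp. The 101 bases around the lin-35 summit were 31.7% GC, against a median of 49.5% for nuclear optimal peaks. The peak was 414 bp wide, and it was among the 295 optimal peaks whose width differed from the usual 444 bp. Replicate 2 listed a second, weak candidate 71 bp upstream of lin-35 with a signal of 10.8, which neither the pooled list nor replicate 1 had. The next peak above the lin-35 promoter peak in rank lay in an intron of hlh-8 itself, with a pooled signal of 271.8 and replicate signals of 135.9 and 137.6. The next below lay in an intron of frm-7, with 266.9 pooled and 118.7 and 148.1 in the replicates.

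lin-54, on chromosome IV at 13241044 to 13243401, had the other optimal peak. Its summit was 349 bp upstream in the 392 bp that separate lin-54 from rpl-12. The signal was 29.8 in replicate 1 and 34.5 in replicate 2, and the pooled list gave 62.2. Both replicates were near their mean of 32.1 ± 3.28 (SD, n = 2), with summits 14 bp apart. The site ranked 939, so it sat in the weaker part of the optimal list, which ends at rank 1120 with a signal of 57.4. In the replicates it ranked 1038 and 919. This was the only leading promoter site besides that of dpl-1 with an E-box within 50 bp of its pooled summit, the CAAGTG shown above. Its neighbours in rank, both with pooled signals of 62.2, lay 2 bp from the 5′ end of K02E2.11 and 842 bp from that of swsn-7.

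lin-9, on chromosome III at 8900237 to 8904131, had the site just outside the optimal list. The peak at 8904069 to 8904512, with its summit 160 bp upstream, ranked 1187 with a pooled signal of 55.8, and the candidate next after the optimal list had 57.4. The signal was 18.4 in replicate 1 and 31.8 in replicate 2, with an SD of 9.49 (n = 2). Replicate 2 was the higher one, and there the site ranked 1095, within as many strongest peaks as the optimal list holds. In replicate 1 it ranked 2906. Its pooled -log10 q of 3.57 was the highest value of the list, as for 1846 pooled candidates, so the pooled q value does not separate it from lin-35 or lin-54. In replicate 1 its -log10 q was 1.57, against 2.85 at lin-35 and lin-54. In replicate 2 it was 3.37, as at lin-35 and lin-54.

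efl-1, the E2F gene, lies on chromosome V at 16958590 to 16965675 and had a weaker site with its summit 179 bp upstream. The signal was 9.8 in replicate 1 and 18.1 in replicate 2. The pooled signal was 32.2, at rank 3187 with a -log10 q of 1.94. Its replicates spread more than those of lin-35 relative to their mean, at 14 ± 5.94 (SD, n = 2), although their summits were 6 bp apart. The 101 bases around the summit were 51.5% GC.

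dpl-1, which encodes the DP partner of EFL-1, was the member with the weakest promoter site. It lies on chromosome II at 9169910 to 9172565, inside the span of T23G7.2 on the other strand. Its pooled candidate, 827 bp upstream and in a coding exon of T23G7.2, had a signal of 12.8, ranked 22899 and matched no replicate summit within 200 bp. Replicate 1 listed another candidate in the window, 537 bp upstream with a signal of 10.6, and replicate 2 listed none. The strongest site within 5 kb of dpl-1 was beyond its 3′ end, 31 bp upstream of sec-5, which encodes an exocyst subunit. That site had a pooled signal of 30.1 and signals of 11.2 and 16.5 in replicates 1 and 2.

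The remaining MuvB genes had sites of intermediate rank. lin-53, on chromosome I at 9618196 to 9619760, had a summit 203 bp upstream with a signal of 10.1 in replicate 1 and 18.1 in replicate 2, and a pooled signal of 31.1 at rank 3422. lin-37, on chromosome III at 7070890 to 7072552, had its site 1613 bp upstream, with signals of 11.5 in replicate 1, 19.4 in replicate 2 and 31.9 pooled, at rank 3242. lin-52, on chromosome III at 9824083 to 9824750, had its site 495 bp upstream in a coding exon of ZK632.9, with 9.1 in replicate 1, 14.2 in replicate 2 and 23.3 pooled, at rank 6430. In all 3 the replicate 2 value was the higher one. The lin-52 replicate summits were 156 bp apart, and that of replicate 1 was 168 bp from the pooled summit. This replicate 1 summit, 663 bp upstream, also matched a second pooled candidate, 733 bp upstream with a signal of 17.8. At lin-53 the strongest window candidate of replicate 1 was a different one, in a coding exon of nra-2, with a signal of 12. The replicate means were 14.1 ± 5.63 for lin-53, 15.5 ± 5.6 for lin-37 and 11.6 ± 3.58 for lin-52 (SD, n = 2 each).

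**Figure D2:**
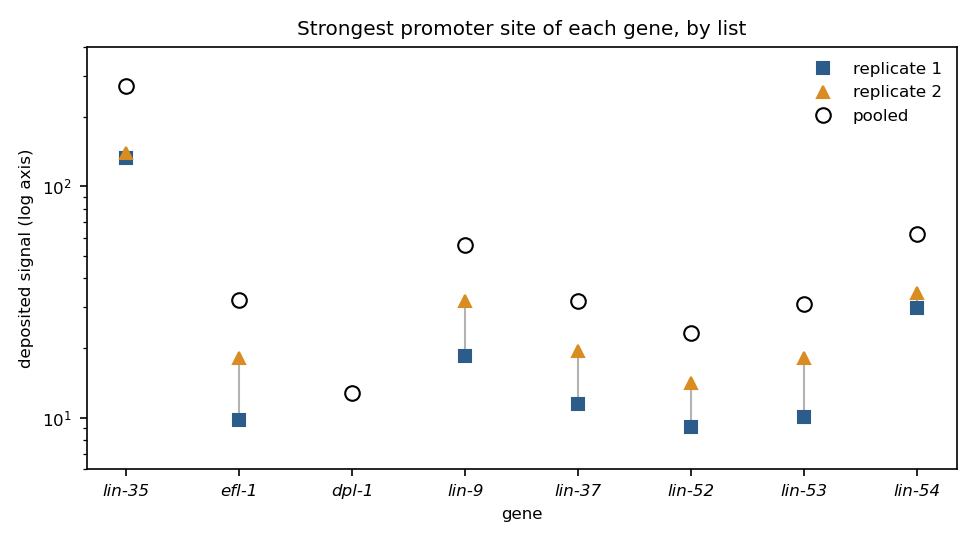
Deposited signal, on a log axis, of the strongest promoter site of each gene in replicate 1 (squares), replicate 2 (triangles) and the pooled list (open circles), with a grey line joining the replicates. Replicate 2 is the higher one at all 7 matched genes, with the smallest ratio at lin-35 (132.1 and 139.2, a log2 ratio of 0.08), and dpl-1 has no matched replicate site.

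Ordered by pooled signal, the leading sites ran from lin-35 through lin-54, lin-9, efl-1, lin-37, lin-53 and lin-52 to dpl-1. The replicate values of lin-35 did not overlap those of any other member. The ranges over the replicates overlapped between lin-54 and lin-9, between lin-9 and lin-37, and among efl-1, lin-37, lin-53 and lin-52. Within each replicate, where a shift between replicates plays no part, lin-54 was above lin-9 and lin-9 above the remaining genes. There lin-37 was above efl-1 and lin-53 in both replicates, although its pooled signal was below that of efl-1, and lin-52 was the lowest of the 7 matched sites in both. Between efl-1 and lin-53 the signals were 9.8 and 10.1 in replicate 1 and both 18.1 in replicate 2. The median of the strongest window signals was 32.1 over the 8 genes and 20.8 over the 10593 genes with a candidate in the window. Among those genes lin-35 was at percentile 99.9, lin-54 at 90.8, lin-9 at 88.5, efl-1 at 74.4, lin-37 at 74.0, lin-53 at 72.9, lin-52 at 57.8 and dpl-1 at 7.3.

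The log2 ratio of replicate 2 to replicate 1 showed how the matched sites differed among themselves. It was 0.08 at lin-35 and 0.21 at lin-54, the 2 optimal sites. It was 0.90 at efl-1, 0.84 at lin-53, 0.79 at lin-9, 0.76 at lin-37 and 0.64 at lin-52. The median was 0.76 over these 7 sites, 0.19 over matched optimal peaks and 0.13 over matched candidates ranked from 1121 to 5000, where the SD over sites was 0.73. Replicate 2 was higher at 7 of 7 of these sites, at 66.2% of matched optimal peaks and at 57.2% of matched candidates of those ranks. The lin-52 site, at rank 6430, fell outside both classes. Over matched candidates ranked 5001 to 15000 the median was 0.05, and replicate 2 was higher at 53.7%. The lists do not say how signals were scaled between replicates.

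**Figure D3:**
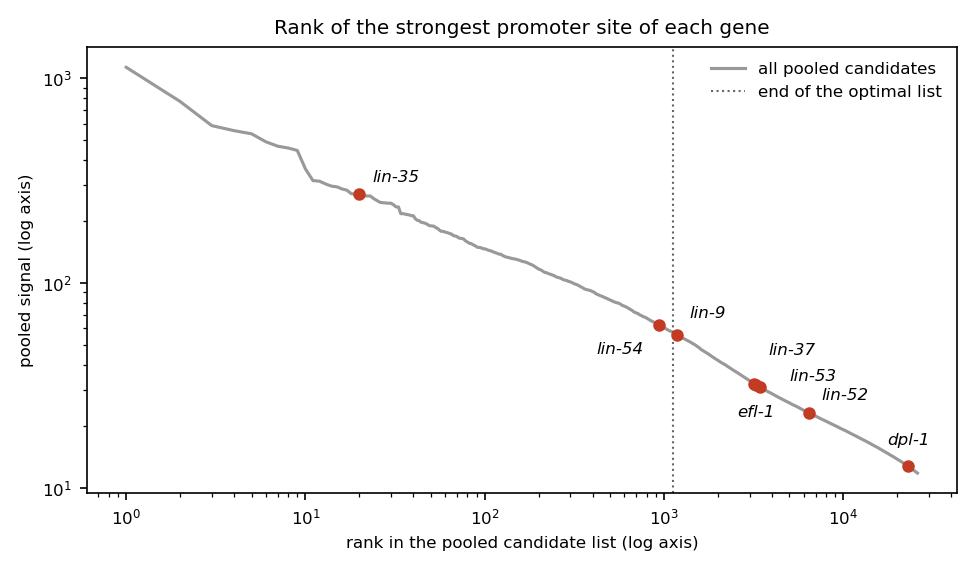
Pooled signal against rank for all 25904 pooled candidates (grey line, both axes log) with the strongest promoter site of each gene in red and the end of the optimal list dotted. lin-35 sits at rank 20, lin-54 and lin-9 lie to either side of the end of the list at 939 and 1187, and dpl-1 is near the bottom at 22899.

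Both optimal peaks lay in promoters shared with a divergent gene, and in both cases the neighbour's 5′ end was the nearer one. The lin-35 summit was 165 bp upstream of vps-51, which encodes a subunit of the GARP and EARP tethering complexes, and 253 bp upstream of lin-35. No other gene had it in its window. The lin-54 summit was 44 bp upstream of rpl-12, which encodes a protein of the large ribosomal subunit, and 349 bp upstream of lin-54. It was also in the windows of tag-115, at 1281 bp, and of the snoRNA gene JC8.15, at 1618 bp. When each optimal peak was given only to the coding gene with the nearest 5′ end, 0 of the 8 genes kept one, against 5.10% of all genes. Of all 1149 genes with an optimal peak in the window, 65.2% were the nearest gene of one. At least 2 coding genes shared 29.4% of the nuclear optimal peaks by the same window.

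Of the 6 weaker leading sites, 4 were nearer to the member and 2 to a neighbour. At lin-9 the other coding gene in the window was unc-32, for a subunit of the vacuolar ATPase, at 1324 bp, and lin-9 itself was the nearer one. lin-53 was likewise nearer, at 203 bp, than nra-2, at 264 bp on the other side of the same gap. efl-1 at 179 bp was nearer than fbxa-90 at 960 bp, and dpl-1 at 827 bp was nearer than T23G7.3 at 1253 bp. lin-37 and lin-52 lie 60 bp and 126 bp downstream of a gene on the same strand, and there the site was nearer to that gene, 314 bp from ZK418.5 and 187 bp inside ZK632.9. The member thus had the nearest coding 5′ end at 4 of the 8 leading sites. No share over the leading sites of all genes is given, and the 65.2% above covers only genes with an optimal peak. An upstream neighbour on the other strand was found for 6 of the 8 genes and for 45.4% of all genes. Genes overlapping the 5′ end were not counted as neighbours. For dpl-1 the neighbour was therefore T23G7.3 and not T23G7.2, which spans dpl-1. For lin-35, lin-53 and lin-54 the neighbour on the other strand was under 500 bp away, as for 9.2% of all genes.

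**Figure D4:**
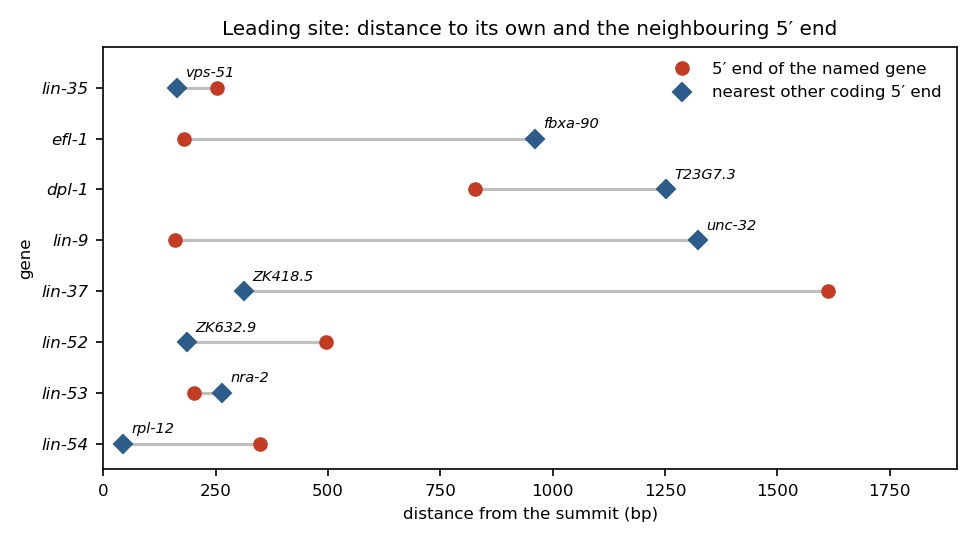
Distance in bp from the summit of the leading site to the 5′ end of the named gene (circles) and to the nearest other coding 5′ end whose window holds it (diamonds, labelled). For lin-35, lin-37, lin-52 and lin-54 the diamond is nearer, down to 44 bp for rpl-12, and for the other 4 genes the circle is.

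Within 5 kb of the 8 genes the pooled list held 41 candidates in all, of which 2 were optimal, while replicate 1 listed 33 and replicate 2 listed 32. The counts per gene ran from 2 at efl-1 to 7 at lin-9 and lin-37, and the median over all genes was 3. An optimal peak lay within 5 kb of 13.8% of all genes. Of the 41 sites, 12 were in the window of the member, 13 had the member as the gene with the nearest 5′ end and 28 were nearer to another gene. By place, 13 summits were intergenic, 10 were in coding exons and 18 were in introns or in other exons. No matching shares over all genes are given for these counts by window, nearest gene and place. They describe the 41 sites only. Summing the pooled signals within 5 kb gave 354.0 at lin-35, which was at percentile 99.1 over all genes, and 157.1 at lin-9, at percentile 87.1. It gave 48.6 at efl-1, at percentile 43.8.

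Agreement between replicates followed rank. All 8 of the sites ranked up to 5000 had a summit in both replicates within 200 bp, as did 6 of the 15 ranked 5001 to 15000 and 0 of the 18 ranked lower. The 2 lin-52 sites in the middle class shared their replicate 1 summit. Over the whole pooled list the shares were 99.7% for the optimal peaks, which end at rank 1120, and 86.1% for ranks 1121 to 5000. They were 34.2% for ranks 5001 to 15000 and 5.82% below. Of the 41 sites 14 were in both replicates (34.1%), 21 in 1 of them and 6 in neither, against 32.8% of all pooled candidates in both.

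The other sites were weaker than the leading promoter site at every gene but dpl-1. Around lin-35 they had pooled signals from 12.9 to 21, the strongest 257 bp upstream of mtk-1, a kinase gene, and the next 372 bp upstream of hmg-3, for a subunit of the chromatin factor FACT. Inside lin-35 there were 3 candidates, at 12.9, 13.5 and 14.4, of which none was matched in both replicates. At lin-9 the second site, 89 bp inside unc-32 in a coding exon, had 25.3 and held CAGATG, and a run of 4 sites from 2684 to 3886 bp downstream of the 5′ end had 12.4 to 19.5. At lin-53 a site of 29.8 lay 61 bp from the 5′ end of K07A1.10, with CAAGTG and with signals of 16.7 and 8.7 in replicates 1 and 2. At lin-54 a second, weak site 112 bp upstream of the gene had 13.7 at rank 20321, and a site of 19.1 lay 65 bp inside cox-11, for an assembly factor of cytochrome c oxidase. None of these was an optimal peak.

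An E-box near the summit was found at 2 of the 8 leading sites and at 17 of all 41 sites. Of the 8 leading sites, 6 had none of the 10 classes within 50 bp of the pooled summit, and the exceptions were lin-54 with CAAGTG and dpl-1 with CAGATG. Within 100 bp of the pooled summit only efl-1 and lin-52 had none. Within 50 bp of the replicate summits, lin-9 had CAGCTG in both replicates and lin-35 had CAACTG in replicate 2. There lin-37 had CATATG in replicate 1 and CAAATG in replicate 2. The share over the 41 sites was 41.5%, against 48.9% of nuclear optimal peaks and 35.1% of nuclear pooled candidates. It was larger with a wider window, 28 of 41 (68.3%) within 100 bp and 36 of 41 (87.8%) over whole peaks, where 56.5% and 81.6% of nuclear pooled candidates held one. CAGATG was at 5 sites and CAAGTG at 5 (12.2% each), against 14.4% and 6.55% of optimal peaks and 6.34% and 4.37% of pooled candidates. CATATG, a class known from HLH-8 target promoters, was within 50 bp of 1 of the 41 pooled summits, inside lin-9 with a signal of 13.4. That is 2.44%, near the share of 2.13% over pooled candidates, and 4.09% of optimal peaks held it. CATATG was within 50 bp of a replicate 1 summit inside lin-9 as well, with a signal of 9.8. It was also within 50 bp of the replicate 1 summit at the lin-37 promoter site, with a signal of 11.5. Another replicate 1 summit with it lay 3534 bp upstream of lin-37, with a signal of 9.9. CACGTG and CAGCTG were within 50 bp of 0 of the 41 pooled summits. The shares were 2.4% and 2.93% of pooled candidates, and 3.45% and 5.82% of optimal peaks. CACGTG was within 50 bp of a replicate 1 summit inside lin-9, with a signal of 13.1. It was also near replicate 2 summits upstream of lin-37 and lin-52, with signals of 12.3 and 10.2. TTTGAA was within 50 bp of 5 of the 8 leading summits, those of lin-9, lin-37, lin-52, lin-53 and lin-54, against 14.2% of optimal peaks and 20.2% of pooled candidates. It was at 14 of the 41 sites. GAGAGA was within 50 bp of 1 of the 8 leading summits, that of lin-35, and at 4 of the 41 sites (9.76%). The shares were 26.1% of optimal peaks and 11.2% of pooled candidates. TTTCCCGC was within 50 bp of 1 of the 41 pooled summits, that of efl-1, against 0.653% of pooled candidates, and it was also within 50 bp of the replicate 2 summit at the lin-53 promoter and of a replicate 1 summit inside lin-9 with a signal of 13.1. TTTGGCGC, in 0.495% of pooled candidates, was at none of the 41 sites. The matches describe these windows and say nothing on whether a factor binds there.

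Other genes of the pathway were taken from 6 lists with 76 genes found in the annotation. Of these 8 (10.5%) had an optimal peak in the window, against 5.75% of all genes, and 68 (89.5%) had a pooled candidate, against 53.0%. The synMuv B genes outside the complex had an optimal peak at 2 of 10. At lin-61, which encodes a protein with MBT repeats, the signal was 49.6 in replicate 1, 47.3 in replicate 2 and 99.1 pooled, 396 bp upstream, and bub-1, a spindle checkpoint kinase gene, was nearer at 263 bp. At gei-4 it was 35.0, 43.7 and 64.6 in the same order, 16 bp inside the 5′ UTR. No optimal peak lay at the 4 synMuv A genes or at the 6 genes of the NuRD and MEC complexes, chromatin remodelling complexes that share synMuv functions.

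In the list of 22 cell cycle regulators, which holds cyclins, kinases, kinase inhibitors, phosphatases, ubiquitin ligase components and the EGF-like ligand gene lin-3, 1 had an optimal peak (4.55%). This was cdc-14, a phosphatase gene, with a pooled signal of 85.6 at 975 bp upstream, where ttc-4 was nearer at 312 bp. Of 31 replication and nucleotide synthesis genes, the class that E2F factors control in many animals, 5 had one (16.1%). The strongest were orc-2, of the origin recognition complex, with 82.5, and psf-1 and psf-2, of the GINS complex, with 75.2 and 70.9. At orc-2 the replicates gave 27.8 and 57.7, and the 5′ end of cyn-4, 119 bp away, was nearer than that of orc-2 at 1201 bp. At psf-1 and psf-2 the named gene was the nearest, at 106 and 259 bp, with replicate signals of 28.6 and 45.4 and of 29.4 and 38.9. The other 2 of this list had 58.6 and 63.3. A name in this list, cdc-45, was not matched in the annotation used.

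**Figure D5:**
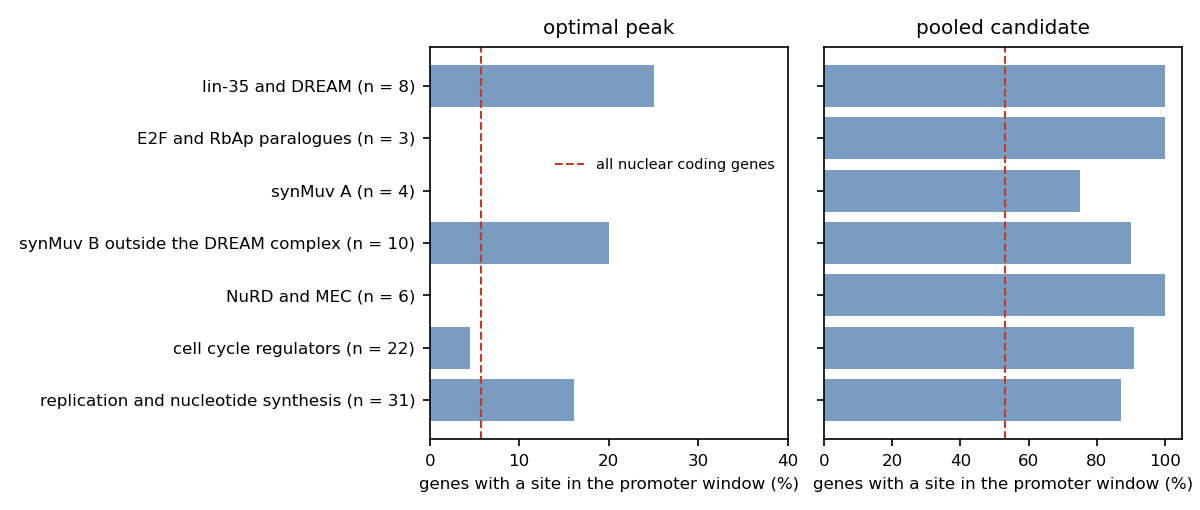
Share of genes with an optimal peak (left) or a pooled candidate (right) in the promoter window, in percent, for the 8 genes and 6 lists of related genes, with the share over all nuclear coding genes as a dashed line (5.75% and 53.0%). The 8 genes have 25% and 100%, the replication list 16.1% and 87.1%, and the cell cycle regulators 4.55% and 90.9%.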

How the data were processed

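Per the deposited file inventories, alignments and a control went into the candidate lists, and an irreproducible discovery rate step into the optimal list. Aligner and caller: not given in the sources used here. Column 7 is the authors' deposited signal, and column 9 the authors' deposited -log10 q value. Scaling for depth is not stated and read depth is unknown, so a signal carries no counting interval and the replicates give the only measure of spread. Lists on ce11 were used, and those on ce10 were not used here.

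Summits were placed on genes from Ensembl release 115, and motifs were read from RefSeq's copy of WBcel235, on both strands within 50 bp of summits. Coordinates count from 1. Ranks follow the signal. Replicate summits were matched within 200 bp. The genes and lists were chosen with earlier results of these data known. The genes named are the 8 members, genes whose window holds an optimal peak near one, the next peaks in rank, and up to 3 genes of each other list with an optimal peak. Other genes are named only to place a member's site or a list, and were chosen after their values were seen. The alternatives changed the window, the reach around genes, the list, the matching distance and the motif window. Functions were tested on simulated data. Python 3.11.15 with numpy 2.4.6 was used, and matplotlib 3.10.9 for plots.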

Additional observations from a re-analysis of the deposited data

How the results depend on the processing

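The number of the 8 genes with an optimal peak stayed at 2 in the narrower window and within 5 kb, was 0 with the nearest 5′ end and 1 in the stronger part of the optimal list, and ran from 2 to 3 with a single replicate, lin-9 being the gene added without replicate 1. A candidate in the window was found for 6 to 8 genes under its alternatives, 7 to 8 with a single replicate. An E-box was near 28 of the 41 sites within 100 bp and in 36 over whole peaks, against 17 within 50 bp, and the share over all pooled candidates was larger too, at 56.5% and 81.6% against 35.1%. With the candidates of a single replicate, an alternative chosen after seeing the data, 17 of 33 sites of replicate 1 (51.5%) and 16 of 32 of replicate 2 (50%) held one within 50 bp, against 35.6% and 34.9% of all nuclear candidates of those lists. The genes sharing the 2 optimal peaks fell from 4 to 2, vps-51 and rpl-12, in the narrower window. Counts of sites within 5 kb and of sites in both replicates, at 12 to 17, stayed within 1.5 times under their alternatives. The strongest window site was also the strongest within 5 kb for 7 genes, and dpl-1 was the exception. No paired analysis was possible because there is 1 group. Read depth is unknown, so the lowest signals cannot be set against a counting error.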

Other observations

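The 3 paralogues of the E2F and RbAp members had no optimal peak in the promoter window, where 5.75% of all genes had one. With 3 genes and that share, the absence is no contrast to the members. The pooled signal in the promoter window was 37.1 for efl-3, at rank 2493 and 383 bp from its 5′ end, and 16.8 for efl-2, at rank 13575 and 25 bp from its 5′ end. That of rba-1, the gene next to lin-53, was 31.1, but this is the lin-53 site itself, 1856 bp from the rba-1 5′ end, so it is no separate value. These genes were named after their values had been seen.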
